A study of Mus musculus with 9 samples.

Results

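The transcription factor gene Nfe2l2, which encodes Nrf2, and 9 of its known target genes for thiol and heme metabolism (Srxn1, Slc7a11, Txnrd1, Gclc, Gclm, Gsr, Nqo1, Hmox1 and Osgin1) were followed in rat liver RNA. The genes were taken by symbol from what is known of the pathway, with earlier results of these data also known. All 10 were found among the 37203 gene entries. Liver RNA of male Wistar rats, as the labels describe them, had been sequenced in 3 groups of 3 libraries. Rats of the schisandrin B group were dosed with CCl4 (carbon tetrachloride, which liver cells turn into a harmful radical) as a 50% mixture in olive oil at 2 mL/kg, 3 times a week for 8 weeks, and after the first 4 weeks were also given daily schisandrin B, a lignan of Schisandra fruit, for the remaining 4 weeks. Daily doses of 25 and 50 mg/kg were used in the study, and the labels do not say which of them the 3 libraries represent. The fibrosis group received the CCl4 course alone for 8 weeks, and the normal group received olive oil in its place. The study describes 8 rats in each treatment group, but not whether each library is another rat. Errors and p-values therefore cover library-to-library spread, which may be technical.

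Nrf2 is a basic leucine zipper protein that is made continuously and is normally marked for destruction by Keap1, an adaptor of the Cul3 ubiquitin ligase. Electrophiles and oxidants modify cysteines of Keap1, Nrf2 then escapes degradation, pairs with small Maf proteins and activates genes that carry antioxidant response elements. Its activity is therefore set mainly at the level of the protein, which RNA sequencing does not measure. In liver these targets supply glutathione, reduce oxidised thioredoxin, detoxify quinones and break down heme, and the repressor Bach1 occupies many of the same elements until heme or oxidants release it.

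The libraries held 10320299 to 16255167 counts, and 14581 genes had enough counts to be tested, among them all 10 genes of interest. Levels are in CPM, counts scaled by library size and TMM factors, and are compared within a gene and not between genes. The log2 fold change is the fitted difference of a gene between groups, and a gene is called when its Benjamini-Hochberg adjusted p in edgeR's quasi-likelihood test, taken over all tested genes, is under 0.05. The Y-linked genes Kdm5d and Eif2s3y averaged 12.3 and 11.8 CPM in schisandrin B libraries and 8.04 and 10.4 CPM in fibrosis libraries but were at 0 in every normal library, although the labels call every animal male. Ddx3y, also Y-linked, was low in all groups, with means of 0.862, 1.24 and 1.48 CPM in schisandrin B, fibrosis and normal libraries. Any comparison with normal livers cannot be told apart from this sex-linked difference. Kdm5d and Eif2s3y were not called in schisandrin B against fibrosis. Fibrosis replicate 1 stood apart from the other fibrosis libraries for several of the genes described here, and results are also given without it.

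The 9 targets were lower in schisandrin B livers than in fibrosis livers, 8 of them were higher in fibrosis livers than in normal livers, and Nfe2l2 itself was not called in any comparison. In schisandrin B against fibrosis 9 of the 10 genes fell and 0 rose, against 47.3% of all tested genes called in either direction, 24.8% called lower and 22.5% called higher. Their median log2 fold change was -3.07, against -0.03 over all tested genes, and Slc7a11, which has no finite fold change, lies at the far end of this order with its fitted value or its bound. In fibrosis against normal 8 of the 10 rose and 0 fell, against 48.3% of all tested genes called in either direction, 25.4% called higher and 22.9% called lower, with a median log2 fold change of 3.08 against 0.03 over all tested genes. In schisandrin B against normal 0 of the 10 were called by edgeR, against 10.5% of all tested genes called in either direction, 5.25% called higher and 5.25% called lower. At an unadjusted p under 0.05, Gclc was higher and Nqo1 and Osgin1 were lower, while DESeq2 called 1 gene, Nqo1, and limma voom 0. DESeq2 gave no adjusted p for Gclm and Hmox1, so it could not call them. Fibrosis libraries enter both of the first 2 comparisons, so those are not independent of each other. Without fibrosis replicate 1 edgeR again called 9 genes lower in the first, against 24.4% of all tested genes, and 8 higher in the second, against 25.1%.

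In both comparisons with fibrosis libraries, the count of genes whose libraries did not overlap was close to the count of calls. In schisandrin B against fibrosis 9 of the 10 genes were lower in every schisandrin B library, against 56.8% of all tested genes without overlap in either direction, 29% lower and 27.8% higher. In fibrosis against normal 7 of the 10 were higher in every fibrosis library, against 55.8% of all tested genes without overlap in either direction, 29% higher and 26.8% lower. Osgin1 was called although 1 fibrosis library lay among the normal ones.

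**Figure D1:**
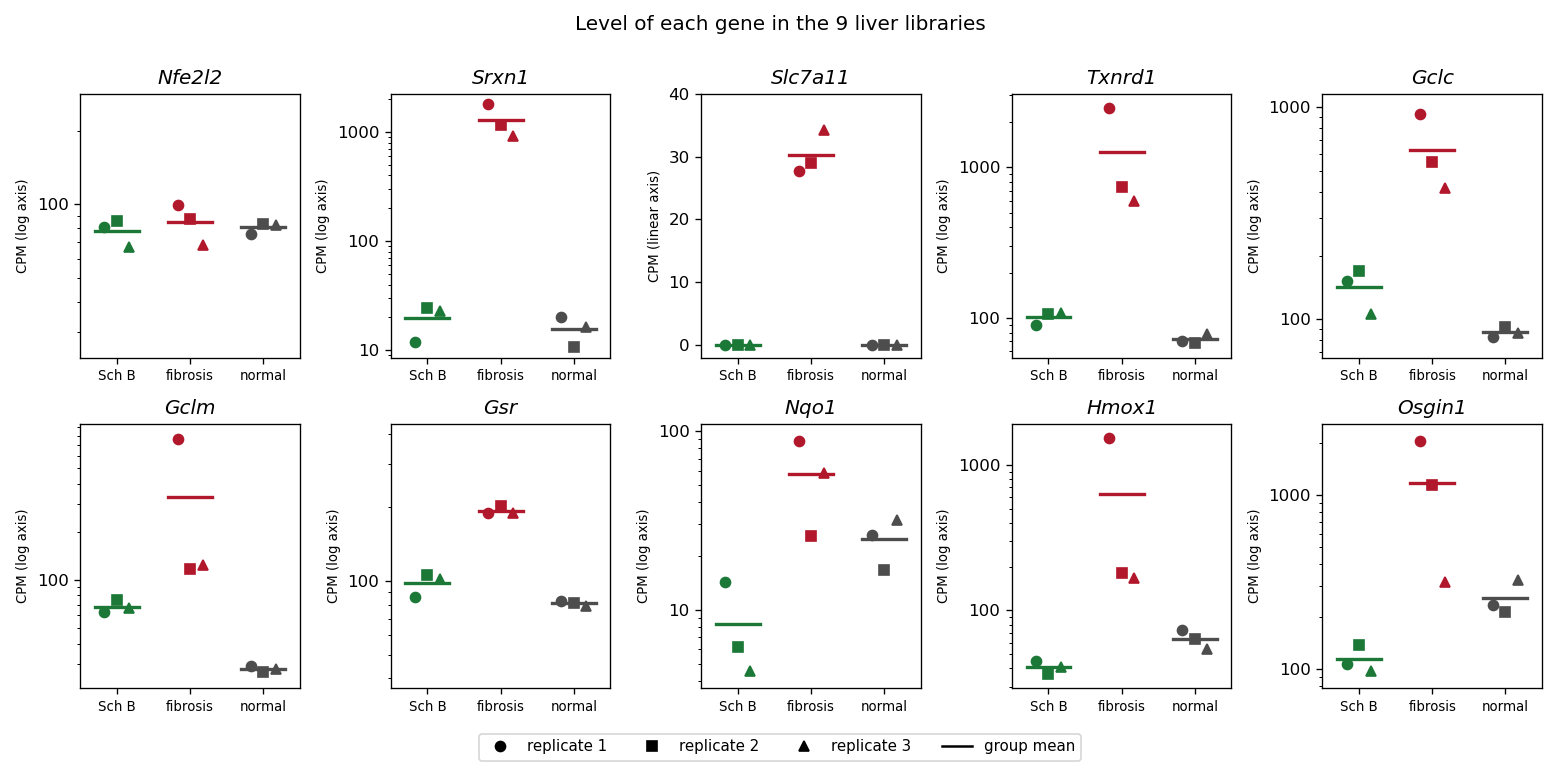
Level of each of the 10 genes in CPM in the 9 libraries, with points for libraries and a line for the group mean; the axis is logarithmic except for Slc7a11, which had 0 counts in 6 libraries. Fibrosis libraries lie above all schisandrin B libraries for every gene except Nfe2l2.

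Nfe2l2, the regulator of all the others, had no called change. Its level was 80.6, 85.3 and 67.0 CPM in schisandrin B libraries, 99.7, 87.1 and 68.1 CPM in fibrosis libraries, and 75.8, 83.0 and 82.7 CPM in normal libraries, so the groups overlapped in every pairing. The log2 fold change was -0.13 in schisandrin B against fibrosis, with a 95% interval of -0.52 to 0.26 and an edgeR adjusted p of 0.581. In fibrosis against normal it was 0.08, with an interval of -0.31 to 0.47 and an edgeR adjusted p of 0.741. Scaling by library totals, which moved the median of all genes by 0.43 on the log2 scale in fibrosis against normal, gave Nfe2l2 a log2 fold change of 0.49 there and a call (edgeR adjusted p 0.0222). The sign of its differences also changed with other settings, as given at the end.

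The genes that bring in cystine and build glutathione made up the first group of targets. Slc7a11 encodes the light chain of the cystine-glutamate exchanger, which supplies the limiting amino acid of glutathione. It had 0 counts in all schisandrin B libraries, 27.7, 28.9 and 34.2 CPM in fibrosis libraries, and 0 counts in all normal libraries. The gene was thus detected in fibrosis livers and in no library of the other groups at this depth. With 3 counts set as the floor in each library, schisandrin B libraries were at least 117-fold lower than fibrosis libraries (edgeR adjusted p 6.59e-06), and fibrosis libraries at least 129-fold higher than normal ones (4.55e-06). Its 3 fibrosis libraries had a coefficient of variation of 11.5%.

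Gclc and Gclm encode the catalytic and the modifier subunit of glutamate-cysteine ligase, the rate-limiting enzyme of glutathione synthesis. Gclc had 151, 170 and 107 CPM in schisandrin B libraries, 926, 551 and 417 CPM in fibrosis libraries, and 82.5, 92.3 and 86.2 CPM in normal libraries. All fibrosis libraries were above all others, and every schisandrin B library was above every normal one. Gclc fell by 2.15 ± 0.29 (SE) on the log2 scale in schisandrin B against fibrosis (edgeR adjusted p 0.000152) and rose by 2.86 ± 0.30 in fibrosis against normal (2.40e-05).

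Gclm had 63.1, 74.4 and 66.7 CPM in schisandrin B libraries, 757, 116 and 124 CPM in fibrosis libraries, and 28.9, 26.4 and 27.9 CPM in normal libraries. The 3 groups did not overlap, and fibrosis replicate 1 was far above the other fibrosis libraries. Gclm fell by 2.29 ± 0.65 on the log2 scale in schisandrin B against fibrosis (edgeR adjusted p 0.0161) and rose by 3.58 ± 0.68 in fibrosis against normal (0.00207). Without fibrosis replicate 1 the log2 fold changes were -0.83 (edgeR adjusted p 0.000597) and 2.12 (8.92e-07), both still called. The call in schisandrin B against fibrosis was lost without schisandrin B replicate 1 (0.0607), without schisandrin B replicate 3 (0.0518) and with no filter on low counts (0.0736).

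The number of Gclc counts per Gclm count within a library does not depend on scaling, and was chosen once the levels were known. It was 2.40, 2.28 and 1.60 in schisandrin B libraries, 1.22, 4.73 and 3.36 in fibrosis libraries, and 2.86, 3.49 and 3.09 in normal libraries. Schisandrin B libraries were all below normal libraries, and fibrosis libraries spread over the range of both. The exact two-sided permutation p was 0.1 for schisandrin B against normal, the smallest that 3 against 3 libraries can give, and 0.5 for schisandrin B against fibrosis.

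Gsr encodes glutathione reductase, which regenerates glutathione with NADPH. It had 86.0, 105 and 102 CPM in schisandrin B libraries, 189, 203 and 189 CPM in fibrosis libraries, and 83.1, 81.5 and 79.1 CPM in normal libraries. Every fibrosis library was above all others, and schisandrin B libraries were all above normal libraries. The coefficient of variation over the fibrosis libraries was 3.96%, the lowest of the 10 genes. Gsr fell by 0.98 ± 0.16 on the log2 scale in schisandrin B against fibrosis (edgeR adjusted p 0.000401) and rose by 1.25 ± 0.16 in fibrosis against normal (7.48e-05), the smallest called changes among the targets in both comparisons.

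The thioredoxin branch was represented by Srxn1 and Txnrd1. Srxn1 encodes sulfiredoxin, which restores peroxiredoxins whose active cysteine has been over-oxidised to sulfinic acid. It had 11.9, 24.2 and 23.1 CPM in schisandrin B libraries, 1797, 1172 and 928 CPM in fibrosis libraries, and 20.3, 10.6 and 16.2 CPM in normal libraries. Schisandrin B and normal libraries overlapped, and the lowest fibrosis library was far above all of them. The mean in schisandrin B libraries was 65.9-fold lower than in fibrosis libraries, and that in fibrosis libraries 82.7-fold higher than in normal libraries. Srxn1 fell by 6.04 ± 0.41 on the log2 scale in schisandrin B against fibrosis (edgeR adjusted p 4.58e-06) and rose by 6.37 ± 0.42 in fibrosis against normal (1.97e-06), the largest fitted changes among the 9 genes with counts in all groups.

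Txnrd1 encodes the cytosolic thioredoxin reductase, a selenoprotein that passes electrons from NADPH to thioredoxin. It had 89.8, 107 and 108 CPM in schisandrin B libraries, 2463, 737 and 598 CPM in fibrosis libraries, and 70.6, 68.0 and 78.7 CPM in normal libraries. The 3 groups did not overlap. Txnrd1 fell by 3.64 ± 0.49 on the log2 scale in schisandrin B against fibrosis (edgeR adjusted p 0.000201) and rose by 4.13 ± 0.50 in fibrosis against normal (9.28e-05). Without fibrosis replicate 1 the log2 fold changes were -2.72 (edgeR adjusted p 1.04e-06) and 3.21 (2.43e-07). The paralogs Txnrd2, for the mitochondrial enzyme, and Txnrd3 were called in the opposite direction in both comparisons. Their log2 fold changes were 1.51 and 1.10 in schisandrin B against fibrosis (edgeR adjusted p 0.000225 and 0.00255) and -1.72 and -1.14 in fibrosis against normal (8.61e-05 and 0.0019).

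Nqo1 encodes a quinone reductase and is widely used as a reporter of Nrf2 activity. It had 14.2, 6.20 and 4.56 CPM in schisandrin B libraries, 87.8, 25.7 and 58.1 CPM in fibrosis libraries, and 26.3, 16.7 and 31.9 CPM in normal libraries. Schisandrin B libraries were below every other library, whereas fibrosis replicate 2 lay within the range of the normal libraries. Nqo1 fell by 2.78 ± 0.52 on the log2 scale in schisandrin B against fibrosis (edgeR adjusted p 0.00176). In fibrosis against normal its log2 fold change was 1.20 ± 0.49 without a call (edgeR adjusted p 0.0669). It was called in 5 of 17 alternatives there, among them the one without fibrosis replicate 2 (edgeR adjusted p 0.0183), and the adjusted p ranged from 0.0183 to 0.285.

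Hmox1 encodes heme oxygenase 1, which opens heme to biliverdin, iron and carbon monoxide, and which liver macrophages express as well as stressed hepatocytes. It had 44.9, 36.7 and 40.5 CPM in schisandrin B libraries, 1530, 182 and 168 CPM in fibrosis libraries, and 73.9, 63.4 and 54.2 CPM in normal libraries. The 3 groups did not overlap, and a single fibrosis library held most of the Hmox1 counts of its group. Hmox1 fell by 3.94 ± 0.82 on the log2 scale in schisandrin B against fibrosis (edgeR adjusted p 0.00352) and rose by 3.30 ± 0.79 in fibrosis against normal (0.00748). Without fibrosis replicate 1 the log2 fold changes were -2.11 (edgeR adjusted p 2.81e-06) and 1.46 (2.77e-05). The paralog Hmox2, the constitutive heme oxygenase, was not called in any comparison.

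Osgin1 encodes a growth inhibitor that is induced by oxidative stress. It had 107, 138 and 97.5 CPM in schisandrin B libraries, 2048, 1140 and 316 CPM in fibrosis libraries, and 235, 214 and 324 CPM in normal libraries. Fibrosis replicate 3 lay within the range of the normal libraries, and schisandrin B libraries were below all others. Osgin1 fell by 3.35 ± 0.56 on the log2 scale in schisandrin B against fibrosis (edgeR adjusted p 0.000872) and rose by 2.18 ± 0.53 in fibrosis against normal (0.00718), where the groups overlapped. Without fibrosis replicate 1 the log2 fold changes were -2.68 (edgeR adjusted p 0.00197) and 1.50 (0.0270), both still called.

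**Figure D2:**
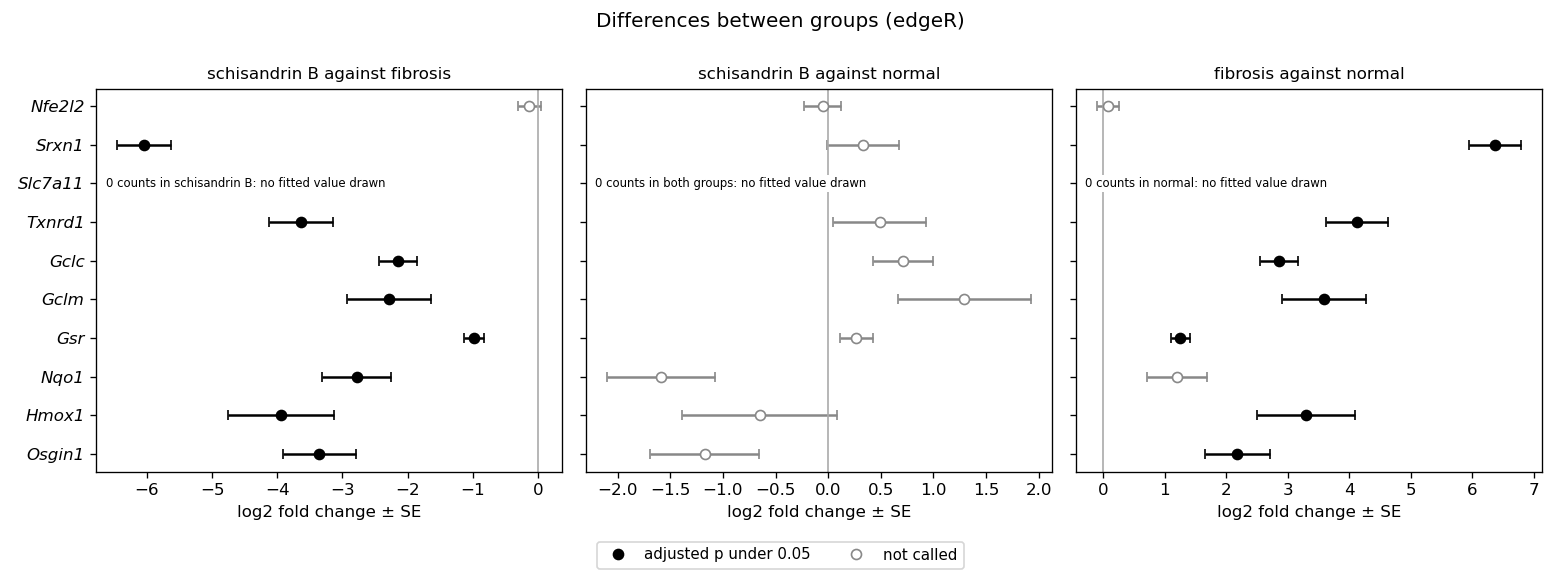
Log2 fold change with its SE for 9 genes in the 3 comparisons, where filled points have an edgeR adjusted p under 0.05; each panel has its own horizontal scale, and Slc7a11 is not drawn because 1 or both groups had 0 counts, so that its fitted value depends on the prior count. Against fibrosis, schisandrin B shows 8 filled points, all negative, and against normal it shows none.

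The targets differed in how evenly they were raised over the fibrosis libraries. Relative to the mean of the other fibrosis libraries, replicate 1 held 8.74 times as much Hmox1, 6.29 times as much Gclm, 3.69 times as much Txnrd1 and 2.81 times as much Osgin1. Over all tested genes this ratio had a median of 1.01 and lay between 0.335 and 2.38 for the middle 90%, so these 4 genes lay above that range. For Nqo1, Gclc, Srxn1 and Nfe2l2 the ratio was 2.09, 1.91, 1.71 and 1.29, and for Gsr and Slc7a11 it was 0.97 and 0.88. The library highest for Hmox1 was thus the lowest for Slc7a11, but only narrowly, at 27.7 CPM against 28.9 CPM in replicate 2. Osgin1 and Nqo1 divided the other fibrosis libraries in opposite ways, since replicate 2 held the lower Nqo1 level and replicate 3 the lower Osgin1 level. Without fibrosis replicate 1, the log2 fold changes in schisandrin B against fibrosis were -5.74 for Srxn1, -2.35 for Nqo1, -1.77 for Gclc and -1.01 for Gsr, all still called. In fibrosis against normal they were 6.07, 0.75, 2.48 and 1.27, where Nqo1 was again not called (edgeR adjusted p 0.285).

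**Figure D3:**
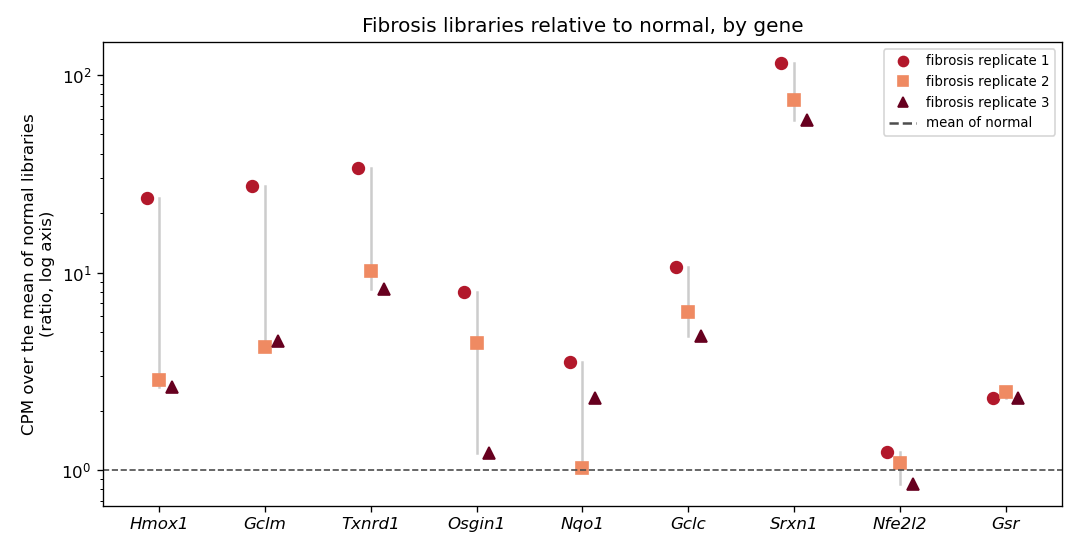
Level of each gene in the 3 fibrosis libraries as a ratio to the mean of the normal libraries, on a logarithmic axis, ordered by how far replicate 1 lies above the others; Slc7a11 is left out because it had 0 counts in normal libraries. Hmox1, Gclm and Txnrd1 are spread widely, with replicate 1 far above the others, while the Gsr points lie between 2.33 and 2.49.

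Schisandrin B livers were set against normal livers to ask how near the treated group lay to the olive oil group. Although edgeR called none of the 10 genes in the fit of all 9 libraries, the libraries of the groups did not overlap in 7 of the 9 genes with counts, against 38.7% of all tested genes. Txnrd1, Gclc, Gclm and Gsr, 4 of the 10 genes, were higher in every schisandrin B library than in any normal one, against 19.9% of all tested genes, with log2 fold changes of 0.49, 0.71, 1.30 and 0.27. Nqo1, Hmox1 and Osgin1, 3 of the 10, were lower in every schisandrin B library, against 18.8% of all tested genes, with log2 fold changes of -1.59, -0.65 and -1.17. Srxn1 and Nfe2l2 overlapped, with 95% intervals of -0.42 to 1.08 and -0.44 to 0.34.

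In that fit the estimate of spread includes the fibrosis libraries. With only the schisandrin B and normal libraries fitted, 5 of the 9 genes with counts were called, against 21.1% of all tested genes. Slc7a11, at 0 counts in both groups, was not tested in this fit. Gclm rose by 1.30 ± 0.13 (edgeR adjusted p 9.23e-05), Gclc rose by 0.72 ± 0.17 (0.0149) and Txnrd1 rose by 0.50 ± 0.14 (0.0244). Osgin1 fell by 1.16 ± 0.19 (0.00193) and Hmox1 fell by 0.64 ± 0.15 (0.0144), while Nqo1 was at -1.58 ± 0.45 without a call (0.0529). With the fibrosis libraries kept but replicate 1 omitted, 3 of the 10 genes were called, namely Gclc and Gclm higher and Hmox1 lower, against 18.5% of all tested genes called in either direction. In each of these fits the ligase subunits were above the normal level and the quinone, heme and growth inhibitor genes below it, and the Y-linked difference holds here too.

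Among 11 tested genes for Nrf2 regulators and partners, 6 fell and 1 rose in schisandrin B against fibrosis, and 5 rose and 1 fell in fibrosis against normal. Over all tested genes 24.8% fell and 22.5% rose in the first comparison, and 25.4% rose and 22.9% fell in the second, so the 6 of 11 called in fibrosis against normal are near the 48.3% called in either direction. The median log2 fold changes of the 11 genes were -0.64 and 0.36, against -0.03 and 0.03 over all tested genes. The ligase subunit Rbx1 was the 1 that rose and Btrc the 1 that fell, both named after their values were seen. Maff, which encodes a small Maf partner of Nrf2, had 12.2, 6.71 and 4.47 CPM in schisandrin B libraries, 940, 145 and 112 CPM in fibrosis libraries, and 2.23, 3.45 and 3.16 CPM in normal libraries, with the highest level in fibrosis replicate 1, the library also highest for Hmox1 and Gclm. Maff fell by 5.68 ± 0.91 on the log2 scale in schisandrin B against fibrosis (edgeR adjusted p 0.000956). Of the other small Maf genes, Mafk fell by 2.74 ± 0.38 (0.000224), and Mafg was at -0.18 ± 0.25 without a call (0.581). In fibrosis against normal Maff, Mafk and Mafg rose by 7.07, 2.97 and 0.81 (edgeR adjusted p 0.000395, 0.000127 and 0.0216). Fibrosis replicate 1 held 7.31 times as much Maff, 2.74 times as much Mafk and 2.44 times as much Bach1 as the mean of the other fibrosis libraries.

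Bach1, the repressor of Hmox1, averaged 32.1 ± 7.30 CPM in schisandrin B libraries, 125 ± 70.5 CPM in fibrosis libraries and 18.6 ± 1.90 CPM in normal libraries (SD, n = 3 each). It fell by 1.97 ± 0.34 (SE) on the log2 scale in schisandrin B against fibrosis (edgeR adjusted p 0.000771) and rose by 2.75 ± 0.35 in fibrosis against normal (0.000103), in the same direction as Hmox1. Sqstm1, which encodes the autophagy receptor p62 that binds Keap1, averaged 480 ± 60.7 CPM in schisandrin B libraries, 5822 ± 947 CPM in fibrosis libraries and 764 ± 156 CPM in normal libraries (SD, n = 3 each). Sqstm1 fell by 3.60 ± 0.25 (SE) in schisandrin B against fibrosis (edgeR adjusted p 4.58e-06) and rose by 2.93 ± 0.25 in fibrosis against normal (6.80e-06). Keap1 fell by 0.64 ± 0.18 in schisandrin B against fibrosis (edgeR adjusted p 0.0135) and was at 0.25 ± 0.18 in fibrosis against normal without a call (0.276).

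The number of Bach1 counts per Nfe2l2 count sets the repressor beside the activator, and was chosen after seeing the levels. It was 0.495, 0.297 and 0.462 in schisandrin B libraries, 2.07, 0.983 and 1.23 in fibrosis libraries, and 0.254, 0.243 and 0.200 in normal libraries. The groups did not overlap, and each of the 3 exact two-sided permutation tests gave a p of 0.1, the smallest possible with 3 against 3. Because Nfe2l2 was not called in any comparison, the ratio mostly restates Bach1. Mafk counts per Nfe2l2 count, also chosen after seeing the levels, averaged 0.302, 1.75 and 0.246 in schisandrin B, fibrosis and normal libraries. The same permutation test gave 0.1 in both comparisons with fibrosis libraries and 0.2 in schisandrin B against normal.

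Of 23 other glutathione and thioredoxin genes tested, 7 fell and 11 rose in schisandrin B against fibrosis, and 7 rose and 11 fell in fibrosis against normal. Scaling by library totals turned the split, with 9 lower and 9 higher in the first comparison and 11 higher and 5 lower in the second. The 7 of 23 that fell in schisandrin B against fibrosis are near the 24.8% of all tested genes that fell, while 22.5% of all tested genes rose. Over all tested genes 25.4% rose and 22.9% fell in fibrosis against normal. The median log2 fold changes of the 23 genes were 0.46 and -0.50, against -0.03 and 0.03 over all tested genes. Slc3a2, the heavy chain that partners Slc7a11, averaged 106 ± 9.32 CPM in schisandrin B libraries, 607 ± 65.6 CPM in fibrosis libraries and 84.9 ± 1.59 CPM in normal libraries (SD, n = 3 each). It had counts in every library, unlike the light chain. On the log2 scale, Slc3a2 fell by 2.51 ± 0.18 (SE) in schisandrin B against fibrosis (edgeR adjusted p 4.93e-06). Gss, the glutathione synthetase, fell by 1.73 ± 0.18 there (2.72e-05). Ggct, a gamma-glutamyl cyclotransferase of glutathione breakdown, fell by 3.35 ± 0.34 (2.56e-05). Gpx2, a glutathione peroxidase, fell by 4.13 ± 0.48 (6.79e-05), and these 4 genes all rose in fibrosis against normal. Among the 11 that rose in schisandrin B against fibrosis were Cth, Cbs, Gpx1 and Gpx4, named after their values were seen. Their log2 fold changes were 2.64, 1.81, 1.60 and 0.90 (edgeR adjusted p 6.92e-05, 0.00194, 0.000426 and 0.00220), and all of them fell in fibrosis against normal. Thioredoxin itself, Txn1, fell by 1.01 ± 0.21 in schisandrin B against fibrosis (edgeR adjusted p 0.00211) and was at 0.24 ± 0.21 in fibrosis against normal without a call (0.353). Prdx1, a substrate of sulfiredoxin, was at -0.37 ± 0.26 (0.274) and 0.45 ± 0.26 (0.177) in the same comparisons.

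Of 16 tested heme and iron genes, 8 rose and 2 fell in schisandrin B against fibrosis, and 1 rose and 9 fell in fibrosis against normal, where scaling by library totals left 3 higher and 3 lower. Of all tested genes, 22.5% rose and 24.8% fell in schisandrin B against fibrosis, and 25.4% rose and 22.9% fell in fibrosis against normal. The median log2 fold changes of the heme and iron genes were 0.54 and -0.77, against -0.03 and 0.03 over all tested genes. The 2 that fell were Fth1 and the heme transporter Slc48a1, named after its values were seen. Most of the 8 that rose serve heme synthesis. Alas1, the first and rate-limiting enzyme of heme synthesis in liver, had a level of 265 ± 27.5 CPM in schisandrin B libraries, 115 ± 30.7 CPM in fibrosis libraries and 223 ± 19.1 CPM in normal libraries (SD, n = 3 each). It rose by 1.20 ± 0.22 (SE) on the log2 scale in schisandrin B against fibrosis (edgeR adjusted p 0.000912), as did the porphyrin transporter Abcb6 by 1.25 ± 0.19 (0.000329). The heme synthesis enzymes Alad and Cpox rose by 1.20 ± 0.23 (0.00148) and 0.95 ± 0.19 (0.00162). Downstream of Hmox1, the biliverdin reductase Blvra rose by 0.82 ± 0.24 (0.0154) and Blvrb was at -0.06 ± 0.19 without a call (0.797). The ferritin heavy chain Fth1, which stores the iron released from heme, fell by 1.47 ± 0.33 (0.00377), and the light chain Ftl1 was at -0.35 ± 0.33 (0.407). Reads of both ferritin genes can be shared with processed copies, so their values are uncertain.

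Of 19 tested genes for NADPH supply and other detoxification steps, 9 fell and 3 rose in schisandrin B against fibrosis, and 7 rose and 3 fell in fibrosis against normal. The 10 of 19 called in fibrosis against normal are near the 48.3% of all tested genes called there, and 12 of 19 were called in schisandrin B against fibrosis, against 47.3%. The median log2 fold changes of the 19 genes were -1.02 and 0.56, against -0.03 and 0.03 over all tested genes. The transketolase Tkt and the UDP-glucose dehydrogenase Ugdh fell by 1.83 ± 0.22 (edgeR adjusted p 7.73e-05) and 2.35 ± 0.19 (6.87e-06) in schisandrin B against fibrosis. Idh1, a cytosolic NADPH source, rose by 2.32 ± 0.24 (2.91e-05). In schisandrin B against normal 0 genes of this group rose and 5 fell, against 5.25% of all tested genes in each direction, among them Tkt by 0.97 ± 0.22 (edgeR adjusted p 0.0173) and Idh1 by 1.00 ± 0.23 (0.0194).

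**Figure D4:**
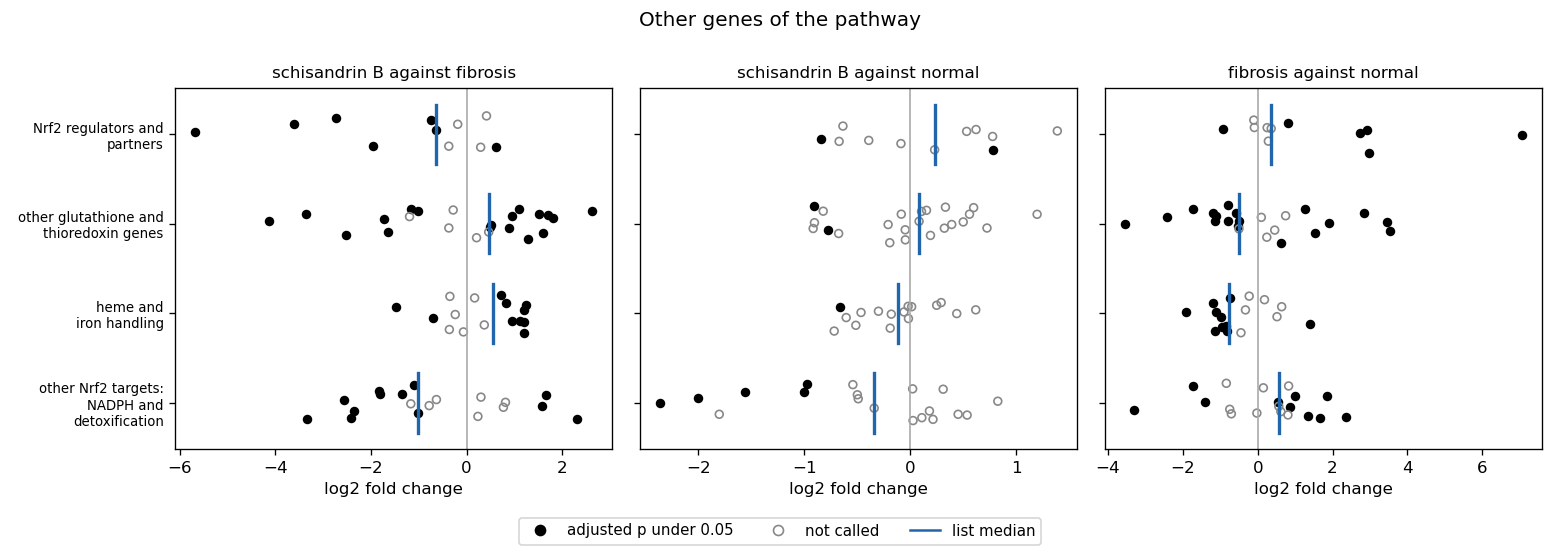
Log2 fold change of each tested gene in the 4 groups of other pathway genes, for the 3 comparisons, with filled points for an edgeR adjusted p under 0.05 and a line at the group's median. The heme and iron genes lie mostly above 0 in schisandrin B against fibrosis, with a median of 0.54, and the NADPH and detoxification genes mostly below, with a median of -1.02.

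Likeness of pattern was measured as the root mean square difference of log2 CPM over the 9 libraries, each gene centred on its own mean, among 8806 genes with a symbol and at least 5 CPM on average. The libraries of a group share their treatment, so the measure mostly reflects differences between the groups. It counts the size of a change as well as its shape, so the genes nearest to Nfe2l2 are ones that also varied little. Nearest to Srxn1 were Hspb1, Cdr2, Slc7a1, Tubb6 and Mmp10, at differences of 0.34 to 0.68. Nearest to Hmox1 were Hspe1, Hspd1, Hspd1-ps1, Chka and Dnaja4, at 0.32 to 0.36, where Hspd1-ps1 can share reads with Hspd1. Nearest to Nfe2l2 were Map4k2, Grina, Apba3, Ap2a1 and Topors, at 0.08 to 0.10. Nearest to Nqo1 were B4galt1, Sema3c, Cdh1, Ppp2r1b and Tmcc3, at 0.46 to 0.59.

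Markers of liver cell types differed between the groups too, and their part in these results was not tested. In bulk RNA, fewer cells of a type and less RNA per cell cannot be told apart. The summed level of 6 hepatocyte markers was 182423 to 202492 CPM in schisandrin B libraries, 59747 to 104175 CPM in fibrosis libraries and 217647 to 255212 CPM in normal libraries. Albumin (Alb) carried most of this sum, with means of 141271, 50983 and 172058 CPM in schisandrin B, fibrosis and normal libraries. Of these 6 genes 3 rose and 0 fell in schisandrin B against fibrosis, where 22.5% of all tested genes rose and 24.8% fell. The 3 of 6 called are near the 47.3% of all tested genes called there in either direction. In fibrosis against normal 0 of the 6 rose and 4 fell, against 25.4% and 22.9% of all tested genes. Serpina1, with means of 9939, 14576 and 10874 CPM in the same groups, had log2 fold changes of -0.55 and 0.42 without a call in these comparisons (edgeR adjusted p 0.0526 and 0.125). For 7 of 8 macrophage and Kupffer cell markers the summed level was 650 to 941, 725 to 1479 and 1218 to 1879 CPM in the same order of groups. Of these 7 genes 0 were called in schisandrin B against fibrosis, against 47.3% of all tested genes. In fibrosis against normal 1 of the 7 fell and 0 rose, against 22.9% and 25.4% of all tested genes. For 6 cholangiocyte markers the summed level was 13.3 to 29.5 CPM in schisandrin B libraries, 52.4 to 64.4 CPM in fibrosis libraries and 20.1 to 25.1 CPM in normal libraries. For 4 neutrophil markers it was 1.92 to 5.91, 15.1 to 20.8 and 4.74 to 9.15 CPM. Epcam carried most of the cholangiocyte sum, with means of 13.7, 41.9 and 15.1 CPM in the same order of groups. Sox9, Spp1 and the neutrophil gene Mpo did not have their highest mean in fibrosis libraries, unlike the other markers of both sums. In the same order their means were 0.594, 0.629 and 0.913 CPM, 1.67, 1.45 and 0.355 CPM, and 0.451, 0.0757 and 0.638 CPM. No marker in these 4 sums was at 0 in all libraries of a group. The summed levels for stellate cells, sinusoidal endothelium, T and NK cells and erythroid cells were 123 to 179, 261 to 274, 6.21 to 8.51 and 207 to 488 CPM in schisandrin B libraries. In fibrosis libraries they were 92.0 to 141, 215 to 244, 2.50 to 4.45 and 374 to 523 CPM, and in normal libraries 88.4 to 133, 293 to 394, 6.07 to 11.7 and 215 to 354 CPM. The endothelium sum held 5 of 6 listed genes and the erythroid sum 4 of 6. Hbb carried most of the erythroid sum, with means of 363, 424 and 285 CPM in schisandrin B, fibrosis and normal libraries. Slc4a1 fell by 2.20 on the log2 scale in fibrosis against normal (edgeR adjusted p 0.00032). In schisandrin B against fibrosis the endothelial Stab2 and Kdr rose by 0.90 and 0.53 (0.0350 and 0.0240). Clec4g, Lyve1 and Pecam1 were at 0.43, -0.34 and -0.59 without a call. The stellate cell sum joins genes that went opposite ways in schisandrin B against fibrosis, where Lrat and Col1a1 rose by 3.87 and 1.55 on the log2 scale (edgeR adjusted p 7.51e-06 and 0.0150), and Acta2 and Des fell by 1.86 and 1.37 (0.000718 and 0.00501). In fibrosis against normal Col1a1 was at 0.38 without a call (0.506), Lrat fell by 3.45 (9.82e-06), and Acta2 and Des rose by 1.54 and 1.37 (0.00196 and 0.00489). Of these genes only Col1a1 was called in schisandrin B against normal, higher by 1.93 (0.0235). Fibrosis replicate 1 was the highest library of its group for Hmox1 and for every cell type sum except those of hepatocytes and neutrophils.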

How the data were processed

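The authors deposited raw counts per gene, without normalization, for 9 Ion Proton libraries of liver RNA. The submitters' processing notes name GRCm38, a mouse build, and the labels give mouse as the organism but Wistar rat as the strain. The file's symbols include 1317 starting RGD and 54 starting RT1, which are rat names, so genes are given by symbol, without coordinates, gene lengths or sequences. Rat reference sequence was not used here. No source used here names the aligner or the counting tool.

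The tests used edgeR 4.0.16 under R 4.3.3: filterByExpr, TMM scaling, and a robust quasi-likelihood fit of all 9 libraries with 1 mean per group. P-values were adjusted over all 14581 tested genes by Benjamini-Hochberg. SEs were derived from the F statistics and intervals are 95%. The script was tested on simulated data with 200 planted changes, far fewer than the 7041 genes called in fibrosis against normal. That test checks the code and cannot show whether the scaling suits these data. A floor of 3 counts equals 0.176 to 0.287 CPM per library and covers counting error only. Replicate numbers follow the deposit order and pair nothing. The genes, pathway lists and marker lists were chosen with earlier results of these data known. Named were all 10 genes, up to 4 genes per list with the lowest adjusted p in schisandrin B against fibrosis, 10 fixed genes of these lists and the 5 nearest in pattern. A gene that this rule names is not reported here. Other names, such as Txnrd2, Txnrd3 and Hmox2, were added after their values were seen. Alternatives were other scalings (DESeq2 size factors, upper quartile, library totals), other filters, DESeq2 1.42.0, limma 3.58.1 voom, fits of only the groups compared, and omission of each library. Figures used Python 3.11.15 and matplotlib 3.10.9.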

Additional observations from a re-analysis of the deposited data

How the results depend on the processing

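No paired analysis was possible because the columns carry no shared replicate numbers. Of 487 values for the 10 genes under alternative settings, 460 kept direction and side of the threshold, 19 newly passed it, 3 no longer passed it (Gclm, above) and 5 changed sign, all for Nfe2l2 without a call. Nfe2l2 in fibrosis against normal was at -0.037 with upper-quartile factors and ranged from -0.051 to 0.22 when single libraries were omitted. In schisandrin B against fibrosis it was at 0.0057 with upper-quartile factors, and in schisandrin B against normal at 0.11 with library totals and from -0.13 to 0.042 with single libraries omitted. DESeq2 gave no adjusted p for Gclm and Hmox1.

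The counts in schisandrin B against normal changed under several settings, and the cause was not tested. The main fit tested 11 regulators, 23 glutathione and thioredoxin genes, 16 heme and iron genes and 19 NADPH and detoxification genes. Fitting only these groups called 2951 genes, 21.1% of those tested. These included 5 of the 10 genes, 8 regulators, 6 glutathione and thioredoxin genes and 6 heme and iron genes. Library totals called 1 of the 10, 5 glutathione and thioredoxin genes and 2 heme and iron genes, and DESeq2 called 1, 5 and 4. No share of all tested genes is given here for library totals, DESeq2 and the other filters. Their counts are therefore not read as results about these gene lists. With no filter 0 heme and iron genes and 3 NADPH and detoxification genes were called, and with a mean of at least 5 CPM 2 heme and iron genes. Omitting single libraries gave 702 to 2814 genes (702 without schisandrin B replicate 3, 2814 without fibrosis replicate 1), 0 to 3 of the 10, 0 to 8 regulators, 0 to 5 genes in both the glutathione and the heme group, and 2 to 6 NADPH and detoxification genes. In fibrosis against normal library totals called 6 heme and iron genes, and the share of all calls that were higher was 74.7% with library totals and 52.7% with TMM. For schisandrin B against fibrosis these shares were 32.6% and 47.6%, and for schisandrin B against normal 70.3% and 50.0%. Depth limits what 0 counts can show to levels above 0.176 to 0.287 CPM, depending on the library.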
